A study of Mus musculus with 12 samples.

Results

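The genes described here are 40 genes of the endoplasmic reticulum (ER) folding machinery and of the unfolded protein response. They were chosen by name and not by a cutoff on any measured value, though earlier results of these data were known. They cover lumenal chaperones, disulfide isomerases, stress sensors with their transcription factors, targets of the integrated stress response, ER-associated degradation, and the translocon with signal peptidase. Of the 40, 39 had at least 1 probe carrying their symbol (73 probes in all), and 34 passed the filter on dim probes among 9788 genes tested. Expression was measured on 12 Illumina BeadArrays of whole pancreatic tumours that grew after surgical implantation of syngeneic tumour cells in Matrigel into the pancreas of adult female C57BL/6J mice. The groups are 4 tumours from mice on vehicle chow (Vehicle) and 5 from mice on chow with an inhibitor of CSF1R, the receptor that macrophages need (CSF1Ri), both for 8 days, and the comparison asks what receptor blockade does to expression in whole tumours. All mice were perfused with heparinised saline and all tumours were digested with collagenase before RNA extraction. The labels name neither the tumour cell line, with its alleles, nor the inhibitor or how much of it was fed, and the host kept its own immune system, stroma and residual pancreas. Titles mark 3 arrays as second hybridisations of Vehicle 1, Vehicle 3 and CSF1Ri 1, and they were averaged with the first, so a tumour counts once. Nothing in the labels says how the tumours relate to separate implantations, so p-values set a group difference against the spread between these tumours only.

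Proteins that are secreted or sit in membranes fold in the ER, where chaperones such as BiP hold them and disulfide isomerases pair their cysteines. When unfolded proteins accumulate, the sensors IRE1, PERK and ATF6 act through the transcription factors XBP1, ATF4 and cleaved ATF6. These raise chaperones and the export of misfolded proteins for degradation, while PERK itself restrains translation. Pancreatic acinar cells make digestive enzymes in bulk and carry a very large ER, and plasma cells do the same for antibodies. Values below are normalised log2 intensities per tumour, given as mean ± SD where a group is summarised, and log2 fold changes are CSF1Ri over Vehicle. A gene is called when its limma p, adjusted over all 9788 genes, is under 0.05. Levels are compared within a probe only, because probes differ in brightness. Splicing of Xbp1, phosphorylation of the sensors and cleavage of ATF6 were not measured.

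Several chaperone genes of this response carry the ER stress response element, ERSE, in their promoters, to which ATF6 and XBP1 are known to bind together with NF-Y. The letters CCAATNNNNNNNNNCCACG were searched on both strands in RefSeq promoter windows (250 bases before to 50 after each annotated start, GRCm38.p6), of which 34 members had one. An exact ERSE stood in the windows of 9 members (26.5%) and in 39 of 32817 windows of all genes (0.119%). The first share counts genes with a match in any window and the second counts windows, here and for the elements below. The 9 members were Calr, Canx, Creld2, Derl3, Dnajc3, Hsp90b1, Hspa5, Pdia6 and Syvn1. The stretches around the match are shown for 5 of them, 5′ to 3′ along the gene's strand, with the fixed letters of the element in capitals, because the values of these genes are compared below.
Hspa5: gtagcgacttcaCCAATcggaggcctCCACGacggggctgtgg
Hsp90b1: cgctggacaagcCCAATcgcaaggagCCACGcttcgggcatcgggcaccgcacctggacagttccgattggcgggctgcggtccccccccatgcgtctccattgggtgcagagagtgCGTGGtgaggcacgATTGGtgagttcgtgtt
Calr: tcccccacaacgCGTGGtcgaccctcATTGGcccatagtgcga
Pdia6: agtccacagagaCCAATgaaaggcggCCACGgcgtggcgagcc
Syvn1: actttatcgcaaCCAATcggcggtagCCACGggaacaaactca
They lie at chr2:34772013-34772055 (plus strand) for Hspa5, chr10:86705521-86705668 (minus) for Hsp90b1, chr8:84847063-84847105 (minus) for Calr, chr12:17266479-17266521 (plus) for Pdia6 and chr19:6046520-6046562 (plus) for Syvn1. Each stretch is upstream of the annotated start. Hsp90b1 holds 2 matches, 1 in each orientation, and the match in Calr runs in reverse, so it reads as CGTGG before ATTGG.

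A second element, TGATGNAA, is the core of the site that ATF4 binds with a C/EBP partner. It stood in the windows of 4 members (11.8%) and in 3.97% of all windows. These were Asns, Chac1, Herpud1 and Trib3, all of which rise when ATF4 is active. The match of Trib3 lies after its annotated start and is not shown. The others are given with the fixed letters in capitals.
Asns: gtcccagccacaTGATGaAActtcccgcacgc
Chac1: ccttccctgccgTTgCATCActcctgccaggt
Herpud1: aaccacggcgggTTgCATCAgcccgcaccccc
They lie at chr6:7693213-7693244 (minus strand), chr2:119351037-119351068 (plus) and chr8:94386305-94386336 (plus), and Chac1 and Herpud1 hold the element in reverse. Herpud1 also holds ERSE-II (ATTGG, any base, CCACG), found in 2 members (Dnajb11 and Herpud1) and in 0.0366% of all windows. Its ending CCACG is also the ending of ERSE, and CCACG alone stood in 32.8% of all windows and in 28 of the 34 members. A match of letters is a description of the window and does not show that a factor binds there.

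No member of the ER folding and stress genes differed between the groups by the test over all genes: 0 of 34 were called, where 21 of 9788 genes (0.215%) were called, all of them lower. The smallest adjusted p among the members was 0.688 (Ddit3). At an unadjusted p under 0.05 the count was also 0 of 34, against 7.53% of all genes. The log2 fold changes of the members ran from -0.26 to 0.36, 17 above and 17 below zero, with a median of 0.02 beside 0.01 over all genes. Their median size without sign was 0.115, beside 0.114 over all genes. In a whole tumour, fewer cells of a type and less RNA per cell cannot be told apart.

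The 95% intervals of the fit bound the size of these differences. For 34 of 34 members the interval lay inside a 2.00-fold change in either direction, as it did for 92.9% of all genes. On the authors' scaled values and with the acinar covariate 31 of 34 lay inside it, without Ern1, Pdia6 and Selenok, and when single tumours were left out 32 or 33 did. Within the 6 dimmer arrays described below 32 did, without Calr and Ddit3. Within the 6 brighter arrays 31 did, without Atf4, Chac1 and Ddit3. In the fit over all tumours the interval of 19 of 34 (55.9%) lay inside a 1.41-fold change, beside 58.0% of all genes. The narrowest intervals were those of Sec61a1 (-0.36 to 0.03), Ssr1 (-0.30 to 0.14) and Pdia3 (-0.13 to 0.30), and the widest those of Ern1 (-0.64 to 0.98), Selenok (-0.83 to 0.75) and Dnajb9 (-0.55 to 0.78). A p that misses the threshold does not show that the groups were alike within these bounds. On dim probes the offset of 16 used in normalisation shrinks fold changes.

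**Figure D1:**
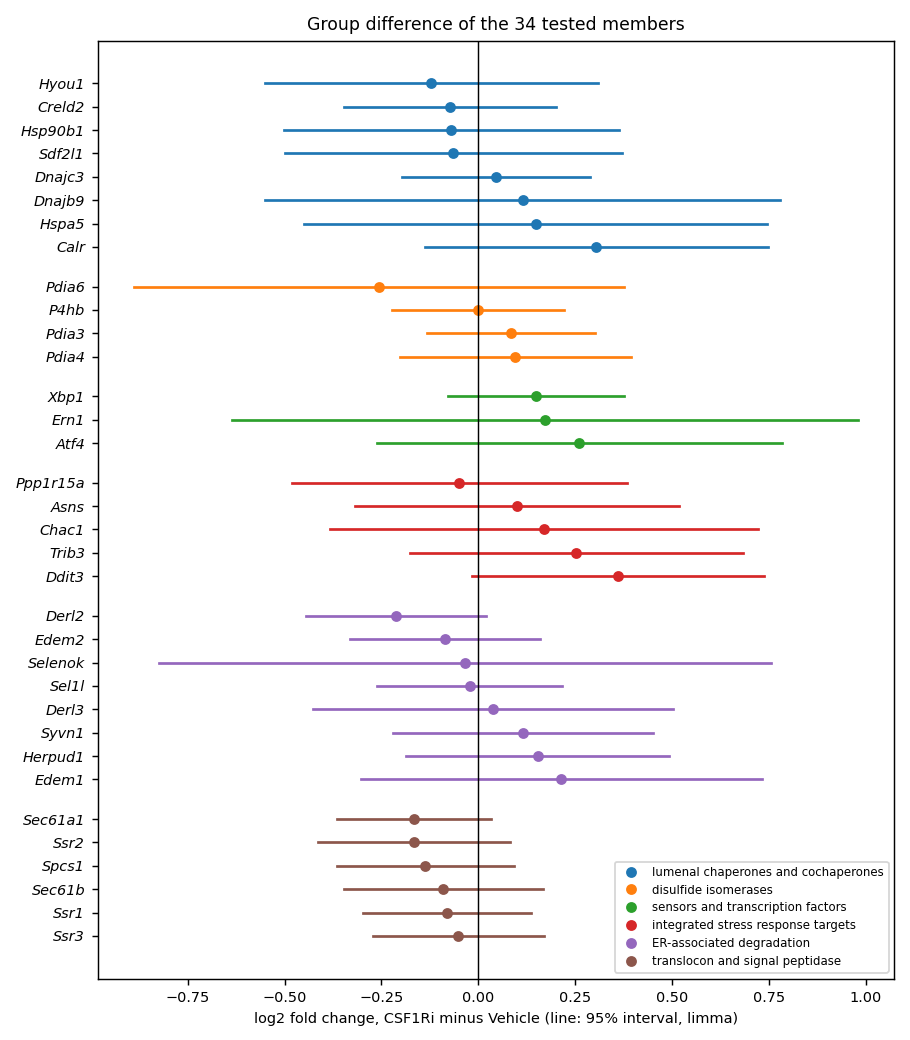
Log2 fold change of each of the 34 tested members (point) with its 95% interval from limma (line), grouped and coloured by role, CSF1Ri minus Vehicle. Every interval crosses zero, the points lie between -0.26 and 0.36, and the 6 translocon and signal peptidase genes all lie to the left of zero.

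Among the lumenal chaperones and cochaperones, 8 of 11 were tested, 4 had a positive and 4 a negative log2 fold change, and the median was -0.01. Hspa5 encodes BiP, the HSP70 of the ER and the usual readout of ER stress. Its single probe was dim and was detected on 4 of 6 Vehicle and 4 of 6 CSF1Ri arrays. Hspa5 read 5.15, 4.48, 4.82 and 5.55 in Vehicle tumours 1 to 4 and 5.24, 4.51, 4.87, 5.76 and 5.35 in CSF1Ri tumours 1 to 5. The groups overlapped over nearly their whole range (log2 fold change 0.15, interval -0.45 to 0.75, adjusted p = 0.971).

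Hsp90b1, the ER paralogue of HSP90 also called GRP94, was well detected. It read 11.81, 11.16, 11.53 and 11.79 in Vehicle and 11.66, 11.15, 11.14, 11.86 and 11.71 in CSF1Ri tumours. Low and high tumours stood in both groups at almost the same values (log2 fold change -0.07, interval -0.50 to 0.36, adjusted p = 0.982). Calr, the lectin chaperone calreticulin that also helps load MHC class I molecules, had the largest positive difference of this role. It read 8.29, 8.63, 8.77 and 9.27 in Vehicle and 9.29, 8.99, 9.19, 8.62 and 9.15 in CSF1Ri tumours. CSF1Ri 4 lay at the level of Vehicle 2, and Vehicle 4 at that of the highest CSF1Ri tumours, so the groups overlapped (log2 fold change 0.30, SE 0.20, adjusted p = 0.851). Without Vehicle 1 it was at 0.155, below Dnajb9 (0.330) and Hspa5 (0.198), and without Vehicle 4 at 0.480.

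The other chaperones gave log2 fold changes from -0.12 to 0.11. Dnajb9 (ERdj4), a cochaperone of BiP and a target of XBP1, was at 8.09 ± 0.47 in Vehicle and 8.20 ± 0.56 in CSF1Ri tumours. Dnajc3 (P58IPK), which binds unfolded chains and restrains PERK, was at 7.74 ± 0.17 and 7.79 ± 0.09. Sdf2l1, a partner of the ER chaperone complex, was at 8.33 ± 0.31 and 8.27 ± 0.33. Creld2, induced by ER stress, was at 10.19 ± 0.15 and 10.12 ± 0.18 by its brighter probe and at a log2 fold change of -0.10 by the other. Hyou1 (GRP170), the nucleotide exchange factor of BiP, was dim, at 5.42 ± 0.39 and 5.29 ± 0.25. The calnexin probe (Canx) and the Manf probe, for a secreted stress factor, were detected on 0 of 12 arrays and say nothing of these genes, and Dnajb11 was not analysed here.

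All 4 disulfide isomerases were tested. P4hb, the founding protein disulfide isomerase, and Pdia3 (ERp57), which works with calnexin and calreticulin on glycoproteins, were among the steadiest genes. P4hb read 13.44, 13.58, 13.60 and 13.35 in Vehicle and 13.36, 13.59, 13.56, 13.48 and 13.48 in CSF1Ri tumours. The means of its groups were 13.49 and 13.49, and the interval of the difference ran from -0.22 to 0.22. Pdia3 read 11.72, 11.64, 11.78 and 11.81 in Vehicle and 11.86, 11.997, 11.72, 11.76 and 11.79 in CSF1Ri tumours. Only CSF1Ri 1 and 2 lay above the highest Vehicle tumour (log2 fold change 0.08, interval -0.13 to 0.30, adjusted p = 0.952).

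Pdia6 (P5), an isomerase that works with BiP, had the most negative difference of all members. It read 7.09, 6.66, 7.17 and 7.49 in Vehicle and 6.89, 6.06, 6.49, 7.35 and 7.46 in CSF1Ri tumours. CSF1Ri 2 and 3 lay below every Vehicle tumour and CSF1Ri 4 and 5 among the highest (log2 fold change -0.26, SE 0.29, adjusted p = 0.948). Its other kept probe was at -0.02. The difference was -0.06 without CSF1Ri 2 and -0.41 without CSF1Ri 5. On the 6 dimmer arrays described below Pdia6 stood at -0.49, and on the 6 brighter ones at -0.03. CSF1Ri 2 has only a dimmer array and CSF1Ri 5 only a brighter one. The rank of Pdia6 among the members thus varied with the tumours and arrays used. Whether single tumours or the array sets account for this was not tested. Pdia4 (ERp72) was at 9.80 ± 0.25 and 9.89 ± 0.14.

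**Figure D2:**
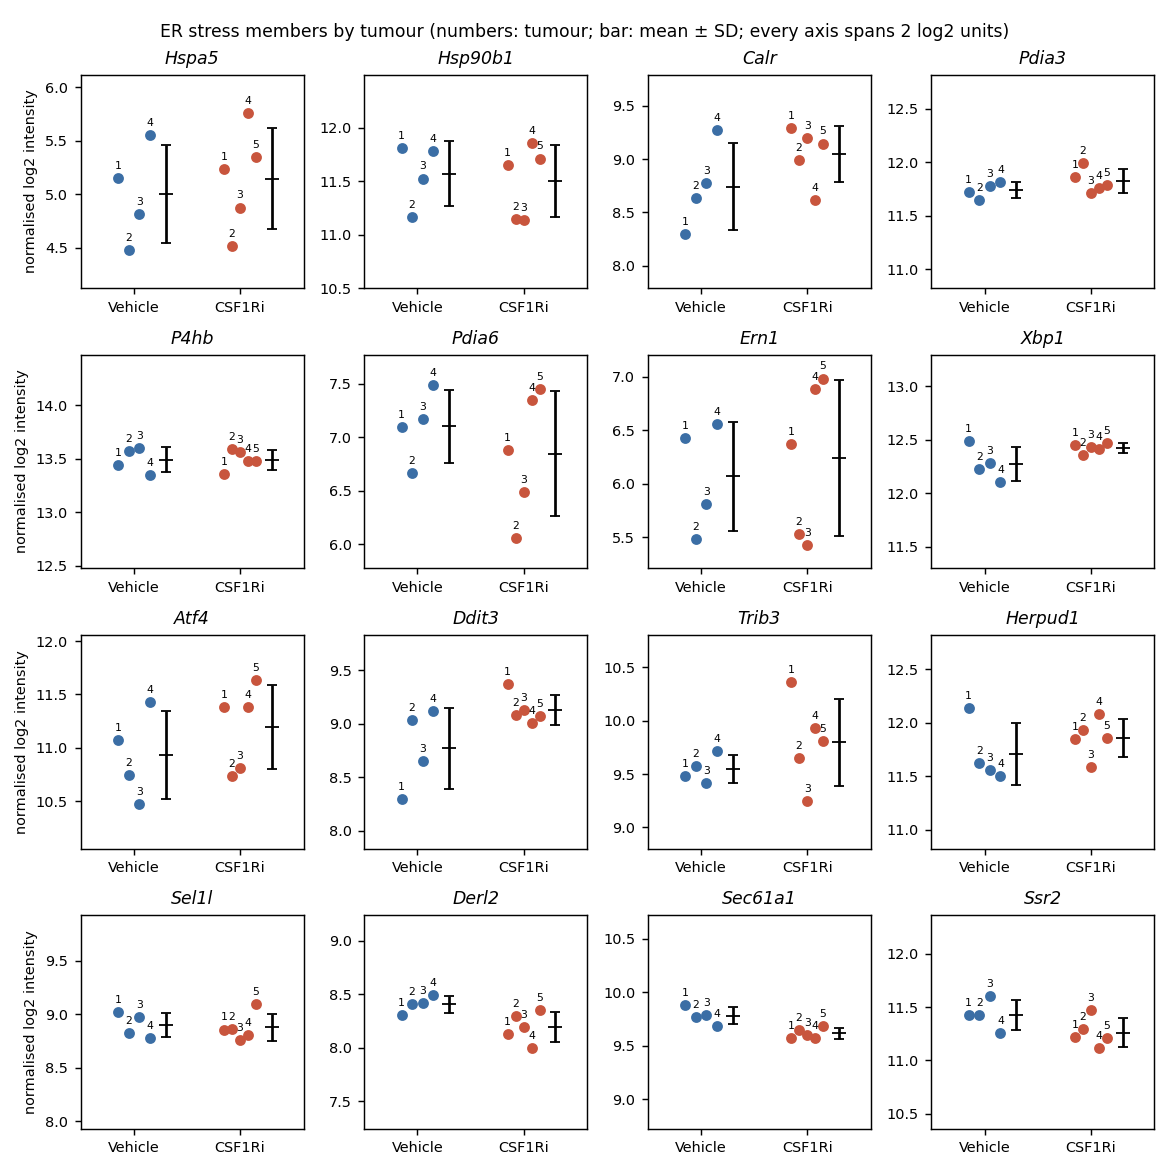
Normalised log2 intensity of 16 members in each tumour (blue, Vehicle; red, CSF1Ri; the number beside a point is the tumour), with the mean ± SD of the group at its right, on axes that all span 2 log2 units. The groups overlap in every panel but that of Sec61a1, where the lowest Vehicle tumour (9.69) lies just above the highest CSF1Ri tumour (9.68). The panels of Ern1, Pdia6 and Hspa5 show the widest scatter within a group.

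Of the sensors and their transcription factors, Ern1, Xbp1 and Atf4 were tested, and the 3 log2 fold changes were positive. Ern1 encodes IRE1, the kinase and endonuclease that splices Xbp1 mRNA. It read 6.43, 5.49, 5.81 and 6.56 in Vehicle and 6.37, 5.53, 5.43, 6.89 and 6.98 in CSF1Ri tumours. High and low tumours stood in both groups, more than 1 log2 unit apart (log2 fold change 0.17, SE 0.36, adjusted p = 0.976). Its other 2 probes were not kept.

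Xbp1, the factor that drives chaperone and ER expansion genes in secretory cells, was tightly placed in CSF1Ri tumours. It read 12.49, 12.23, 12.29 and 12.11 in Vehicle and 12.46, 12.35, 12.43, 12.42 and 12.47 in CSF1Ri tumours. Vehicle 1 was the highest of all 9 and the other Vehicle tumours the 3 lowest (log2 fold change 0.15, interval -0.08 to 0.38, adjusted p = 0.872). The difference was 0.22 without Vehicle 1. Atf4, the transcription factor of the integrated stress response, is raised mainly by translation of its mRNA, which was not measured. Its mRNA read 11.08, 10.74, 10.48 and 11.43 in Vehicle and 11.39, 10.74, 10.82, 11.39 and 11.64 in CSF1Ri tumours. The groups overlapped, from 10.48 to 11.43 in Vehicle and from 10.74 to 11.64 in CSF1Ri tumours (log2 fold change 0.26, SE 0.24, adjusted p = 0.912). The other Atf4 probe was at 0.37. Atf4 was at 0.109 without Vehicle 3, at 0.427 without Vehicle 4 and at 0.162 with the acinar covariate. Both Atf6 probes were detected on at most 1 of 12 arrays, and both probes of Eif2ak3, which encodes PERK, on at most 2, so no level is given for these sensors.

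The 5 targets of the integrated stress response were all tested, and 4 of 5 log2 fold changes were positive, with a median of 0.17. Ddit3 encodes CHOP, a factor that promotes cell death under lasting stress, and had the largest difference and the smallest p of all members. It read 8.29, 9.03, 8.65 and 9.12 in Vehicle and 9.37, 9.08, 9.13, 9.01 and 9.07 in CSF1Ri tumours. Vehicle 1 and 3 lay below every CSF1Ri tumour, while Vehicle 2 and 4 stood among them (log2 fold change 0.36, a 1.28-fold difference, SE 0.17, interval -0.02 to 0.74, unadjusted p = 0.0585, adjusted p = 0.688). The second Ddit3 probe was at 0.47, with an unadjusted p of 0.0172 and an adjusted p of 0.468 over all kept probes. Without Vehicle 1 the first probe was at 0.20, and with the acinar covariate described below at 0.27.

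Trib3, a pseudokinase induced by ATF4 and CHOP, read 9.48, 9.58, 9.41 and 9.72 in Vehicle and 10.36, 9.65, 9.25, 9.93 and 9.81 in CSF1Ri tumours. CSF1Ri 1 was the highest and CSF1Ri 3 the lowest of all 9 tumours, so the Vehicle range lay inside that of CSF1Ri (log2 fold change 0.25, SE 0.19, adjusted p = 0.889). Its 2 other kept probes were at 0.15 and 0.36. Without CSF1Ri 1 the difference was 0.11, without CSF1Ri 3 it was 0.39, and with the acinar covariate it was 0.055. Chac1, which degrades glutathione, was at 9.22 ± 0.41 and 9.39 ± 0.44. Asns, asparagine synthetase, was at 10.95 ± 0.19 and 11.05 ± 0.37 by its brightest probe, and the other kept probes were at 0.05 and -0.25. Ppp1r15a (GADD34), which restores translation by directing the phosphatase of eIF2α, was at 8.30 ± 0.35 and 8.25 ± 0.30.

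In ER-associated degradation, which returns misfolded proteins to the cytosol for the proteasome, 8 of 9 genes were tested, 4 positive and 4 negative, with a median of 0.01. Herpud1, a stress-induced scaffold of the degradation complex, read 12.14, 11.63, 11.55 and 11.50 in Vehicle and 11.84, 11.93, 11.59, 12.08 and 11.86 in CSF1Ri tumours. Vehicle 1 was the highest tumour and the 3 other Vehicle tumours lay at the bottom with CSF1Ri 3 (log2 fold change 0.15, adjusted p = 0.930, and 0.30 without Vehicle 1). The second Herpud1 probe was at 0.14. Sel1l, the adaptor of the ubiquitin ligase HRD1, read 9.03, 8.83, 8.97 and 8.78 in Vehicle and 8.86, 8.86, 8.76, 8.81 and 9.10 in CSF1Ri tumours, a log2 fold change of -0.02 with an interval from -0.26 to 0.21. Its partner Syvn1, which encodes HRD1, was at 11.02 ± 0.17 and 11.14 ± 0.27.

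Derl2, a channel-like derlin of this complex, had the most negative difference of the role. It read 8.30, 8.41, 8.42 and 8.49 in Vehicle and 8.12, 8.30, 8.19, 8.00 and 8.35 in CSF1Ri tumours. Vehicle 1 fell among the CSF1Ri tumours and the 3 other Vehicle tumours lay above all of them (log2 fold change -0.21, SE 0.11, unadjusted p = 0.0699, adjusted p = 0.713), and the second Derl2 probe was at -0.09. Derl3, a derlin of secretory cells, was dim, detected on 4 of 6 Vehicle and 3 of 6 CSF1Ri arrays, at 4.80 ± 0.23 and 4.84 ± 0.42. Edem1 and Edem2, lectins that pick out misfolded glycoproteins, were at log2 fold changes of 0.21 and -0.09. Edem1 was at 0.025 without Vehicle 2 and at 0.386 without Vehicle 4. The 4 kept probes of Edem2 disagreed, from -0.26 to 0.37. Selenok, a selenoprotein of the ER membrane listed under its older symbol Selk, was at 7.10 ± 0.77 and 7.06 ± 0.51, and the Derl1 probes were detected on 0 of 12 arrays.

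All 6 genes of the translocon and signal peptidase, which pass new chains into the ER and trim them, had negative log2 fold changes, from -0.17 to -0.05 with a median of -0.11. Over all genes 53% of log2 fold changes were positive. The acinar markers, described below, also had negative log2 fold changes in 25 of 25. With their mean as a covariate the 6 genes ran from -0.195 (Spcs1) to -0.026 (Ssr3), with Sec61a1 at -0.123, Ssr2 at -0.120 and Sec61b at -0.037. Sec61a1, the pore subunit, read 9.88, 9.77, 9.79 and 9.69 in Vehicle and 9.57, 9.64, 9.60, 9.57 and 9.68 in CSF1Ri tumours. The groups were separated, with all CSF1Ri tumours below, with Vehicle 4 (9.686) and CSF1Ri 5 (9.682) the closest pair. The groups of 1.42% of all genes were separated in this direction, and Sec61a1 was the only such member. The difference was small, -0.17 or 1.12-fold (SE 0.09, unadjusted p = 0.0918, adjusted p = 0.757), and the SD of this gene within groups was lower than that of all but 0.378% of genes.

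Ssr2, a subunit of the translocon-associated TRAP complex, read 11.42, 11.42, 11.61 and 11.26 in Vehicle and 11.22, 11.29, 11.47, 11.12 and 11.21 in CSF1Ri tumours. The groups overlapped, with CSF1Ri 3 above 3 of 4 Vehicle tumours (log2 fold change -0.17, adjusted p = 0.861). Ssr1 and Ssr3, of the same complex, were at -0.08 and -0.05, Sec61b at -0.09 and -0.23 by its 2 probes, and the signal peptidase subunit Spcs1 at -0.14 and 0.01 by its 2 probes.

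The 8 tested members that carry an exact ERSE had a median log2 fold change of 0.04 and ran from -0.26 (Pdia6) to 0.30 (Calr), 5 of them positive, beside a median of 0.08 and 12 of 23 positive among tested members whose window lacks it. The 4 members with the ATF4 element were all positive, from 0.10 (Asns) to 0.25 (Trib3) with a median of 0.16, beside a median of 0.00 and 13 of 27 positive without it. With the acinar covariate these 4 were at 0.017 (Asns), 0.055 (Trib3), 0.064 (Chac1) and 0.150 (Herpud1), and Asns was at -0.032 by the mean of its probes and at -0.011 within the dimmer arrays. Ddit3, with the largest difference, is among those without a match in this window. These counts are descriptions of genes chosen by name, with no test.

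Some members differed more between arrays than between the groups. The 6 dimmer arrays (Vehicle 1, 2 and 3 and CSF1Ri 1, 2 and 3, each in its first hybridisation) had mean unscaled intensities of 142 to 193, and the 6 brighter ones (Vehicle 4, CSF1Ri 4 and 5 and all 3 second hybridisations) 224 to 316. These sets are also the first 6 and the last 6 arrays in the order of the series. Brightness therefore cannot be told apart from any batch that follows this order, and chips and scan dates were not known here. In a fit over the 12 arrays with group and brightness set as terms and the tumour as a random block, 8 of 34 members were called higher on the brighter arrays and 0 lower. Over all genes, 6.53% were called higher and 2.46% lower there. The 8 were Selenok (log2 difference 0.94), Hspa5 (0.84), Ern1 (0.76), Dnajb9 (0.62), Pdia6 (0.61), Atf4 (0.48), Hsp90b1 (0.38) and Asns (0.33), with adjusted p from 0.000882 (Hspa5) to 0.0220 (Asns).

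The 3 repeat pairs enter that fit, each with its first array in the dimmer and its second in the brighter set. Their differences show the shift within a tumour and are not a separate test of it. Hspa5 was higher on the second array by 0.34 in Vehicle 1, by 0.92 in Vehicle 3 and by 1.16 in CSF1Ri 1. For Ern1 the second array was higher by 0.19, 0.68 and 0.85, for Pdia6 by 0.37, 0.36 and 0.67, and for Dnajb9 by 0.22, 0.76 and 0.63. Each of these repeat differences exceeds the group difference of its gene in size. Selenok moved by 0.05, 1.38 and 1.14. Other members moved less: Xbp1 by -0.03, 0.09 and 0.03, Pdia3 by 0.13, -0.06 and -0.01, and Sec61a1 by -0.01, -0.10 and -0.10. The group difference of Sec61a1 was -0.17. The closest tumours of its groups, at 9.686 and 9.682, lay nearer together than the size of any of its moves. Ddit3 moved downwards, by -0.22, -0.20 and -0.37. For Ern1 and Pdia6 the 3 lowest tumours were Vehicle 2, CSF1Ri 2 and CSF1Ri 3, hybridised only in the dimmer set, and the 3 highest were Vehicle 4, CSF1Ri 4 and CSF1Ri 5, hybridised only in the brighter set.

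**Figure D3:**
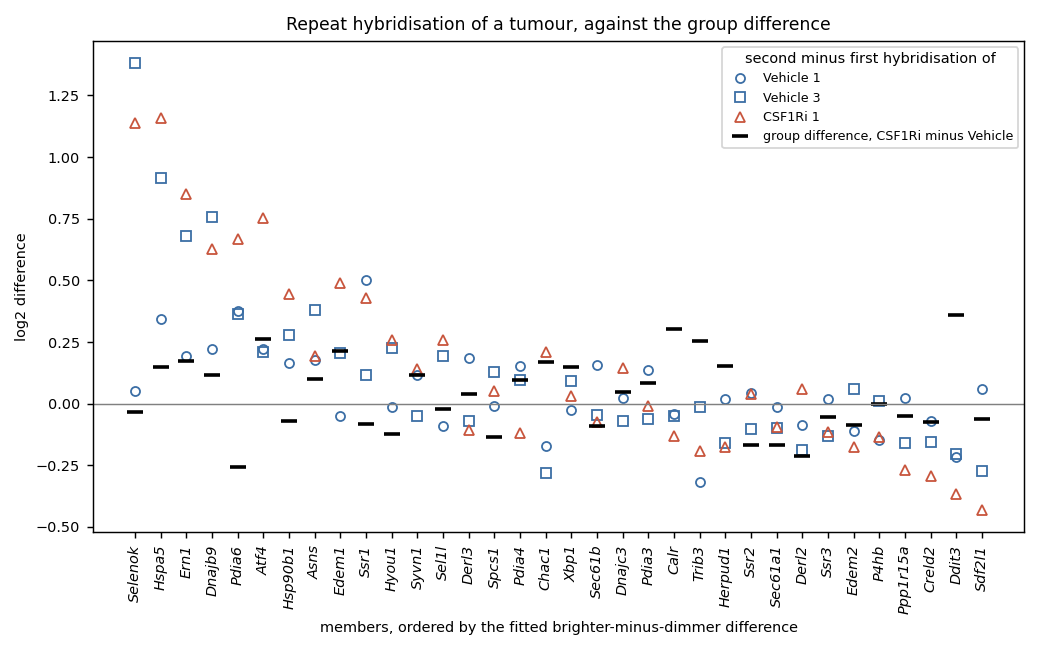
Log2 difference between the second and the first hybridisation of Vehicle 1, Vehicle 3 and CSF1Ri 1 (open symbols) for each tested member, with the group difference CSF1Ri minus Vehicle as a black bar. The members at the left, from Selenok to Asns, shifted upwards on all 3 second arrays, by up to 1.38, while their group differences lie between -0.26 and 0.26.

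Because each set holds 3 tumours of each group, the comparison was repeated within them. Within the dimmer arrays 0 of 34 members were called, beside 0.0102% of all genes, and Calr (0.60), Ddit3 (0.53) and Pdia6 (-0.49) had an unadjusted p under 0.05, as did 6.35% of all genes. Within the brighter arrays 0 of 34 were called, beside 0.112% of all genes, and Atf4 (0.53), Trib3 (0.52) and Ern1 (0.48) had an unadjusted p under 0.05, as did 11.1% of all genes. No member had one in both. Ddit3 was at 0.53 and 0.48 in the 2 sets, and Calr at 0.60 and 0.23. Ern1 went from -0.13 within the dimmer to 0.48 within the brighter arrays, and Sec61a1 was at -0.21 and -0.17. With the set as a block over all arrays, 0 of 34 members were called, beside 0.531% of all genes, and Ddit3 was at 0.40 (unadjusted p = 0.0330, adjusted p = 0.517), the only member with an unadjusted p under 0.05, beside 8.66% of all genes. Vehicle 1, Vehicle 3 and CSF1Ri 1 stand in both sets, so the sets are not independent.

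**Figure D4:**
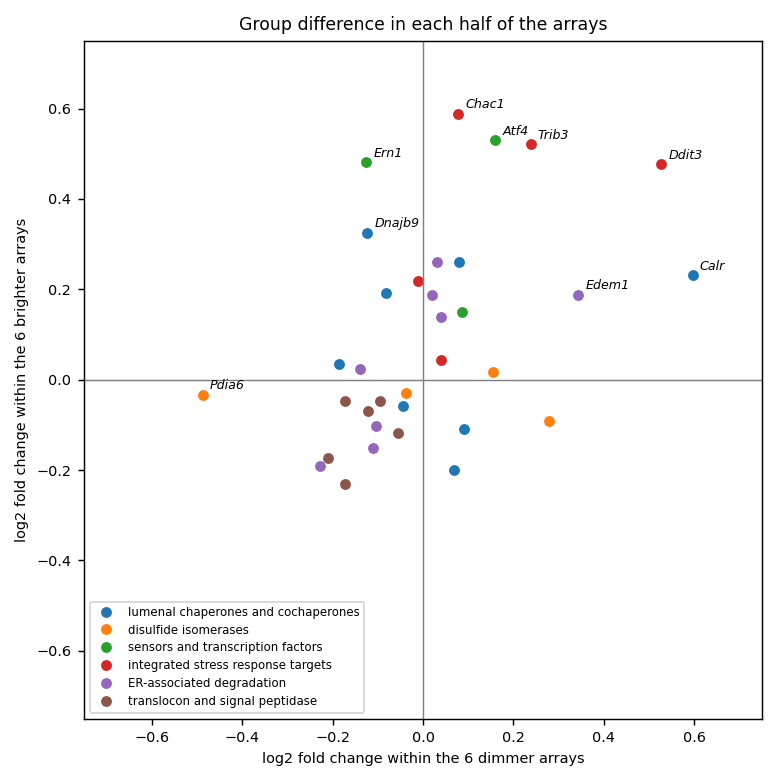
Log2 fold change, CSF1Ri minus Vehicle, of each tested member within the 6 dimmer arrays (horizontal) and within the 6 brighter arrays (vertical), coloured by role, with names where either exceeds 0.3 in size. Ddit3 lies at 0.53 and 0.48, Calr at 0.60 and 0.23 and Chac1 at 0.08 and 0.59, and the 6 translocon and signal peptidase genes lie below zero on both axes.

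The mean of the acinar markers varied far more between tumours than the mean of the ER members did. The mean of 25 tested acinar markers of 28 ranged from 9.15 to 11.53 in Vehicle and from 5.09 (CSF1Ri 1) to 11.83 (CSF1Ri 5) in CSF1Ri tumours. All 25 had negative log2 fold changes and 0 were called. Single ER members ranged over up to 1.66 between tumours (Selenok), and opposite moves cancel in a mean. The mean of the 34 ER members stayed between 9.07 and 9.38 in every tumour, and was 9.36 in CSF1Ri 1 and 9.38 in CSF1Ri 5. In those 2 tumours Xbp1 was at 12.46 and 12.47, P4hb at 13.36 and 13.48, Sel1l at 8.86 and 9.10, and Derl3 at 5.43 and 5.13. Ern1 (6.37 and 6.98) and Pdia6 (6.89 and 7.46) lay further apart, higher in CSF1Ri 5. Trib3 (10.36 and 9.81) and Ppp1r15a (8.48 and 7.99) also did, higher in CSF1Ri 1. CSF1Ri 5 was hybridised only in the brighter set of arrays and CSF1Ri 1 in both sets. The fitted brighter-minus-dimmer difference was 0.76 for Ern1 and 0.61 for Pdia6, and its part in these gaps was not tested. The isomerase gene Pdia2, which is largely pancreas-specific and not a member, varied with the acinar markers. It read 9.68, 10.37, 10.62 and 7.63 in Vehicle and 4.47, 8.56, 7.51, 5.96 and 10.57 in CSF1Ri tumours. With the acinar mean as a covariate 0 of 34 members were called, beside 0.0817% of all genes, and the largest difference was -0.32 (Pdia6).

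**Figure D5:**
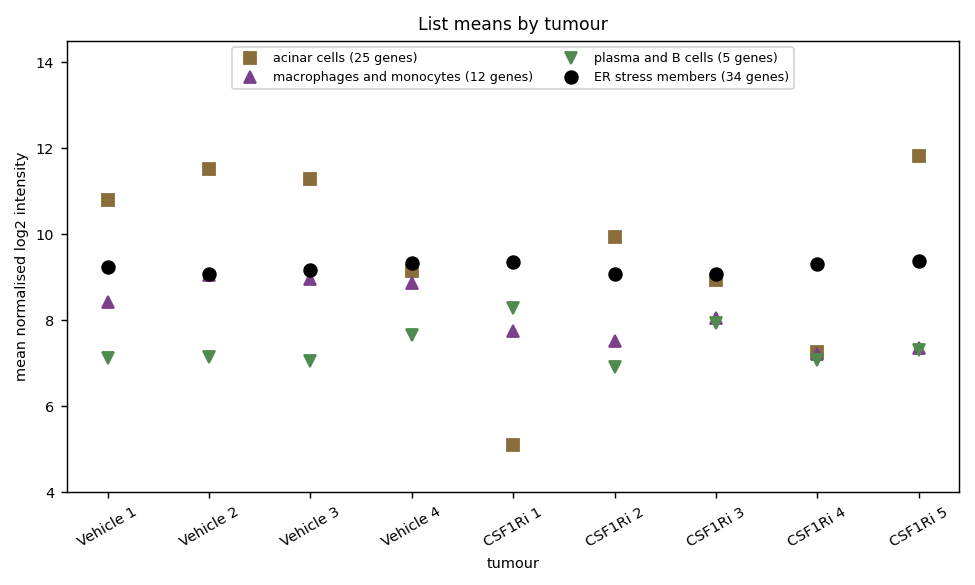
Mean normalised log2 intensity in each tumour over 34 ER members, 25 acinar markers, 12 macrophage and monocyte markers and 5 plasma and B cell markers. The mean of the ER members stays between 9.07 and 9.38 while the acinar mean runs from 5.09 to 11.83, and the macrophage mean is lower in each CSF1Ri tumour (7.22 to 8.06) than in any Vehicle tumour (8.42 to 9.05).

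Of the macrophage and monocyte markers, 4 of 12 tested were called lower, with a list mean of 8.82 ± 0.28 in Vehicle and 7.59 ± 0.33 in CSF1Ri tumours. Apart from the acinar covariate, the part of the marker lists in the members' values was not tested. Plasma and B cell markers had means of 7.05 to 7.65 in Vehicle and 6.92 to 8.29 in CSF1Ri tumours over 5 tested of 12, and the plasma cell gene Jchain did not pass the filter on dim probes. Tumour and duct epithelial markers, which check the labelled tissue, had means of 10.87 ± 0.22 and 11.03 ± 0.27 over 10 tested of 12. Arrays detected from 16219 to 17847 of their 45281 probes. All 10 neutrophil markers tested had negative log2 fold changes (median -1.99). Of these, 8 had an unadjusted p under 0.05, beside 7.53% of all genes. Only Mmp9 was called lower, beside 0.215% of all genes, and the groups of the other neutrophil markers overlapped.

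Other genes of the same pathways, from lists written by name, had 0 called in each list. Of 25 tested folding and glycosylation genes 11 were positive (median -0.02), and the first by p were Sdf2 (-0.20) and the prolyl isomerase gene Fkbp11 (-0.32), both with adjusted p of 0.688 to 0.691. Of 15 further translocation and signal recognition genes 11 were negative, with a median of -0.09. The first by p were Srpr, the receptor of the signal recognition particle (-0.39), and Srp54a, of the particle itself (0.35), both with adjusted p = 0.697. Of 15 further degradation genes 8 were positive (median 0.00), with Nploc4 at -0.18 and Herpud2 at -0.15.

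Of 23 further genes of the integrated stress response 19 were positive, with a median of 0.05, and 0 were called. Vldlr, a lipoprotein receptor gene that PERK and ATF4 can induce, read 9.32, 9.48, 9.12 and 9.38 in Vehicle and 9.94, 9.59, 9.50, 10.23 and 9.94 in CSF1Ri tumours. The groups were separated, with all CSF1Ri tumours above, as for 1.46% of all genes (log2 fold change 0.52, SE 0.16, unadjusted p = 0.00790, adjusted p = 0.365). Eif2ak2, the interferon-inducible kinase PKR that also phosphorylates eIF2α, was at 0.40 (unadjusted p = 0.0309, adjusted p = 0.564). Cytosolic and mitochondrial heat shock genes had 10 of 12 positive with a median of 0.15, led by Hsph1 at 0.29 and Hspa1b at 0.21 (adjusted p = 0.789 and 0.861). Immediate early genes, which tissue digestion can raise, had 5 of 10 positive with a median of 0.00, with Jun at 0.27 (adjusted p = 0.589) and Dusp1 at -0.42 (adjusted p = 0.799).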

How the data were processed

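Per the labels' protocols, DNase-treated total RNA from collagenase-digested tumours was amplified to biotinylated cRNA for Illumina arrays. The authors deposited, per the file headers, an intensity and a detection p-value for 45281 probes on 12 arrays. The intensity is background-subtracted, since it falls below zero, and unscaled. A second deposited table holds the same intensity times 1 factor per array. No source used here names the scanner software.

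The intensities were normalised with neqc of limma 3.58.1 in R 4.3.3 (detection p-values as background model, offset 16, quantile, log2). A probe was kept where 4 or more tumours had it detected (p under 0.05) on all their arrays (16606 probes). Of all probes, 34885 had 1 gene symbol, 18 several and 10378 none. Symbols come from the platform annotation, checked by Entrez identifier against RefSeq (0 changed). The kept probe with the highest mean stood for a gene (9788 genes). Groups came from titles, arrays of a tumour were averaged, and lmFit and eBayes compared 4 Vehicle with 5 CSF1Ri tumours, with Benjamini-Hochberg adjustment. The fit was tested on simulated data. Few tumours limit precision. Replicate numbers gave correlations of deviations from -0.09 to 0.34 between same-numbered tumours, so they were not treated as pairs.

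The members, lists and tests were chosen with earlier results of these data known. Members given tumour by tumour were a fixed set of textbook members of each role, the 4 most positive and 4 most negative tested members and any whose groups did not overlap. Of other pathway lists the 2 genes with the smallest p are named. Pdia2, Derl3 beside the acinar markers and the genes named for array shifts were chosen after their values were seen. Promoter sequences are RefSeq's (GRCm38.p6, 34 of 40 members matched). No coordinates of probes are given.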

Additional observations from a re-analysis of the deposited data

Results flagged for a closer look

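Within each group of tumours, the gap between an extreme tumour and its nearest neighbour was set against the range of the group (Dixon's ratio) and compared with its 95% critical value. Of 68 sets of values, 3 exceeded it, where chance flags about 1 in 20. Hyou1 was at 4.85 in CSF1Ri 2 and between 5.34 and 5.44 in the other CSF1Ri tumours, a ratio of 0.820. Asns was at 10.67 in Vehicle 2 and between 11.02 and 11.07 in the other Vehicle tumours (0.883). Edem2 was at 11.11 in Vehicle 4 and between 11.38 and 11.39 in the others (0.958). CSF1Ri 2 and Vehicle 2 were hybridised only in the dimmer set of arrays and Vehicle 4 only in the brighter set. The fitted brighter-minus-dimmer difference was 0.22 for Hyou1, 0.33 for Asns and -0.10 for Edem2. Its part in these values was not tested.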

How the results depend on the processing

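Under each of 22 alternatives 0 members were called, and the smallest adjusted p of a member was 0.326, within the brighter arrays. The 95% interval lay inside a 2-fold change for 34 members as reported and for 31 to 34 in the alternatives that kept all 34 with 1 value per gene. Over 744 comparisons of a member with an alternative, 63 changed sign, in 18 members. The count of all genes called, 21 as reported, was 13 with no filter on dim probes, 10 with detection on every array, 8 with the acinar mean as a covariate, 1 within the dimmer arrays, 11 within the brighter arrays, and 52 with the brightness set as a block, an alternative chosen after seeing the data. It was 11 without Vehicle 2 or without Vehicle 3 and 34 without CSF1Ri 3, the range when each tumour was left out. With the replicate number as a block 1 gene and 0 members were called. CSF1Ri 5 has no partner under that block and does not enter the difference. The block turned P4hb to 0.003, Ern1 to -0.014, Ppp1r15a to 0.016 and Derl3 to -0.036, and the numbers are shared only by name. The acinar covariate turned Dnajb9 to -0.022, Hspa5 to -0.048, P4hb to 0.065, Edem2 to 0.018, Sel1l to 0.046, Derl3 to -0.063 and Syvn1 to -0.013. Within the dimmer arrays Creld2 was at 0.069, Sdf2l1 at 0.091, Dnajc3 at -0.083, Dnajb9 at -0.124, Ern1 at -0.125, Ppp1r15a at 0.041 and Asns at -0.011. Within the brighter arrays Hsp90b1 was at 0.034, Pdia4 at -0.092, Ppp1r15a at 0.044 and Sel1l at 0.023. The mean of a gene's kept probes turned Asns to -0.032, Edem2 to 0.040 and Sel1l to 0.015. The authors' scaled values gave P4hb 0.020, and leaving out repeat hybridisations gave Selenok 0.030. When tumours were left out one at a time, sign changes gave ranges of -0.262 to 0.049 for Hyou1, -0.206 to 0.021 for Hsp90b1, -0.187 to 0.058 for Sdf2l1, -0.005 to 0.108 for Dnajc3, -0.020 to 0.330 for Dnajb9, -0.024 to 0.332 for Hspa5, -0.048 to 0.035 for P4hb, -0.014 to 0.183 for Pdia4, -0.023 to 0.375 for Ern1, -0.216 to 0.047 for Ppp1r15a, -0.008 to 0.354 for Chac1, -0.402 to 0.152 for Selenok, -0.078 to 0.019 for Sel1l and -0.110 to 0.137 for Derl3. The cause of these changes was not tested. Dim signal limits Hspa5, Derl3, Hyou1 and Edem1, and gives no value for Canx, Manf, Derl1, Atf6 and Eif2ak3.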
